A study of Mus musculus with 30 samples.

Results

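The comparison described here sets mouse embryonic stem cells (mESCs) kept for 10 passages in 2i/LIF against the same cells kept for 10 passages in Serum/LIF. It was chosen by column, as the 3 libraries P10_2iL_1 to P10_2iL_3 against the 3 libraries P10_SL_1 to P10_SL_3, across all genes. These are 6 of the 30 RNA-seq libraries of the series and 6 of the 18 libraries of its passage experiment, and 16054 of the 55487 genes in the table had enough counts to be tested. The cells are E14tg2a, an established male mouse ESC line that lacks a working Hprt gene, so each group rests on 1 line. Serum/LIF (SL) was DMEM with foetal bovine serum, glucose, pyruvate and the cytokine LIF on gelatin. For the 2i/LIF (2iL) medium the methods name N2B27, CHIR99021, PD03 and LIF, in the description of their proteome cultures. The passage experiment also held cells in EMM (Serum/LIF with galactose in place of glucose and pyruvate) and a set of all 3 media at 20 passages (P20), with 3 libraries per group. No genotype, transgene or other agent distinguished the groups, and LIF was shared by all of them. The methods call RNA-seq replicates biological replicates from independent experiments, whereas the labels only number them, so the p-values measure the spread between these libraries.

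mESCs are derived from the blastocyst and keep the potency of the epiblast in culture. In 2i/LIF, PD0325901 blocks MEK, the kinase that activates ERK, and CHIR99021 blocks GSK3, the kinase that marks beta-catenin for destruction. ERK output is therefore held down and Wnt target genes are held up while LIF acts through JAK and STAT3. Serum brings many further signals, among them BMP ligands, growth factors and lysophospholipids that drive the actin and serum response factor programme. Serum/LIF cultures are known to be mixed, with cells close to the naive pre-implantation epiblast beside cells that have begun to move towards the primed post-implantation state, while 2i/LIF cultures are known for a more uniform naive state and low DNA methylation.

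The P10 libraries held 10030841 to 19619023 counts per library in 2i/LIF and 13293496 to 16072649 in Serum/LIF. The lowest Pearson correlation of log2 CPM was 0.976 between libraries of 2i/LIF and 0.983 between those of Serum/LIF, against at most 0.898 between the media. ESC identity was present in both media: Pou5f1, Sox2, Nanog, Sall4, Zfp42 and Esrrb summed to 48020 to 49935 normalized counts (counts scaled by library size, as are all levels below) in 2i/LIF and to 45062 to 49261 in Serum/LIF. Hprt stayed between 1.63 and 18.8 normalized counts over the 6 libraries. 2i/LIF replicate 1 stood apart from the other libraries of its medium in 2 ways. Its genes on chromosome 6 and chromosome 8 sat 0.247 and 0.179 above the Serum/LIF mean (median log2 difference), while replicates 2 and 3 sat at 0.0939 and 0.108 on chromosome 6 and at 0.0191 and 0.012 on chromosome 8. Its transcripts from the mitochondrial genome also made up 1.47% of counts, against up to 3.39% in the others. The part of these differences in the results on those chromosomes was not tested.

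**Figure D1:**
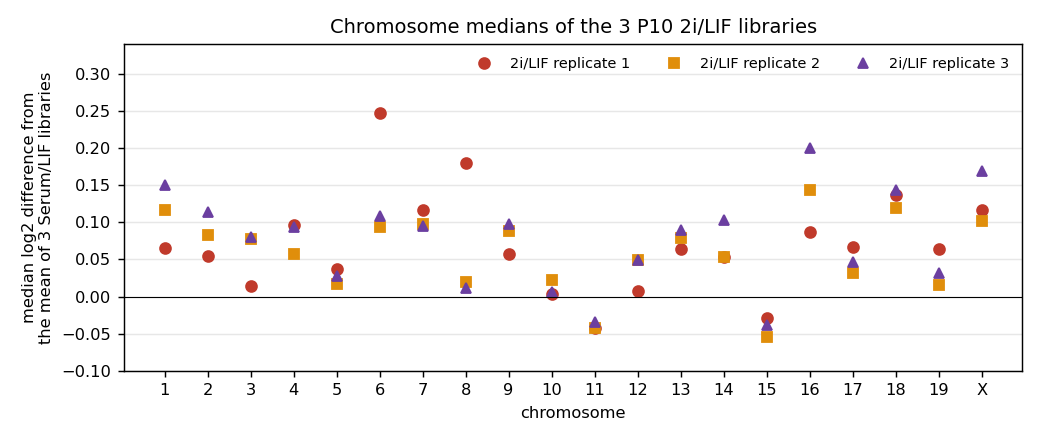
Median log2 difference of each P10 2i/LIF library from the mean of the 3 P10 Serum/LIF libraries, for the genes of each chromosome with a mean above 4 on the log2 CPM scale. Replicate 1 (circles) lies at 0.247 on chromosome 6 and 0.179 on chromosome 8, away from replicates 2 (squares) and 3 (triangles), and all 3 libraries lie below 0 on chromosomes 11 and 15.

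A gene was called when its adjusted p (edgeR's quasi-likelihood test, Benjamini-Hochberg over all 16054 genes) was under 0.01 and its log2 fold change was over 1 in size. By that rule 4234 genes, or 26.4% of those tested, differed between the media, 1865 of them higher in 2i/LIF and 2369 lower. With the adjusted p alone, which is the rule used for members of gene lists below, 4234 genes (26.4%) were higher and 4116 (25.6%) lower, 52.0% in all. The 3 and 3 libraries did not overlap for 65.9% of genes. The median log2 fold change over all genes was 0.02 after TMM scaling, which itself centres most genes near 0, so all values are relative to that centre.

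Genes downstream of ERK were mostly lower in 2i/LIF. Of 18 genes of ERK output, all tested, 12 fell, 2 rose and 4 did not pass, with a median log2 fold change of -1.12. Dusp6, a phosphatase that switches ERK off and is itself switched on by it, stood at 273, 280.3 and 274 normalized counts in the 3 2i/LIF libraries and at 1091, 1098 and 1076 in Serum/LIF. The groups did not overlap, and the log2 fold change was -1.98 ± 0.11 (SE, as for all values after ±; adjusted p = 3.99e-11 by edgeR). Values below are given in the same order, replicates 1, 2 and 3 of 2i/LIF against replicates 1, 2 and 3 of Serum/LIF, and a value in parentheses after a gene, or after rose by or fell by, is a log2 fold change of 2i/LIF over Serum/LIF. Dusp4, a phosphatase of the same family, read 54.9, 33.4 and 50.5 in 2i/LIF and 1246, 1156 and 900.0 in Serum/LIF. Spry4, a feedback inhibitor of receptor tyrosine kinase signalling, read 76.9, 58.1 and 36.7 against 1144, 1053 and 1146. Both genes were at least 10 times higher in every Serum/LIF library than in any 2i/LIF library, and their log2 fold changes were -4.56 and -4.37 (adjusted p = 7.90e-13 and 8.49e-14, edgeR). Smaller falls were found for Dusp5 (-2.99), Phlda1 (-2.48), Ier3 (-2.37), the ETS factor Etv4 (-1.74) and the Sprouty genes Spry1 (-1.32) and Spry2 (-0.91), all on the log2 scale. Etv5, an ETS factor, did not pass, with a log2 fold change of -0.01.

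Of the immediate-early genes of the list, Egr1 went the other way. Egr1, a zinc finger factor induced within minutes of ERK activation, read 3720.0, 3969 and 3383 in 2i/LIF and 1448, 1580.4 and 1514 in Serum/LIF, so that all 3 2i/LIF libraries were higher and the log2 fold change was 1.28 ± 0.12 (adjusted p = 3.38e-08, edgeR). Fos read 3703, 3154 and 1702 against 2469.9, 2809.7 and 1998, with overlapping groups, and did not pass when all libraries were used (log2 fold change 0.23). The other member that rose was Il17rd (0.36), an inhibitor of FGF signalling. Il17rd lost its call without replicate 2 or 3 of 2i/LIF or replicate 1 or 2 of Serum/LIF (adjusted p up to 0.0243, edgeR). This leaves 1 gene higher, except without 2i/LIF replicate 3, where Fos passed (0.50) and 2 genes were higher. At 20 passages Egr1 had means of 7.89 in 2i/LIF and 393 in Serum/LIF, and its log2 fold change was -5.40. The test of the difference between passages gave adjusted p = 1.16e-11 (edgeR). In EMM at P10 its mean was 1079.7.

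Wnt target genes rose together. Of 16 targets of beta-catenin, 14 were tested (Lgr5 and Wif1 had too few counts), and 12 rose, none fell and 2 (T and Nkd1) did not pass. The median log2 fold change was 1.92. Axin2, a scaffold of the beta-catenin destruction complex and the standard reporter of the pathway, read 3257, 4151 and 3782 in 2i/LIF and 462, 424 and 244 in Serum/LIF. Every 2i/LIF library was over 7 times the highest Serum/LIF library, and the log2 fold change was 3.30 ± 0.19 (adjusted p = 4.59e-11, edgeR). Sp5, a zinc finger repressor that feeds back on Wnt targets, read 2354, 2467 and 2345 against 426, 393 and 129.6. Serum/LIF replicate 3 was the lowest library, and the log2 fold change was 2.91 ± 0.26 (adjusted p = 2.47e-08, edgeR). Cdx1, a homeobox gene, read 471, 392 and 414 against 54.0, 48.6 and 25.5, a log2 fold change of 3.30. Notum, which inactivates Wnt ligands, and Rnf43, which removes their receptors, rose by 2.62 and 2.48 on the log2 scale. Cdx2, Dkk1 and Apcdd1 rose by 2.14, 1.97 and 1.87. The TCF family genes Tcf7 and Lef1 rose less, by 0.74 and 0.86, as did Ccnd1 (0.88) and Znrf3 (0.83). T, the mesoderm factor also called Brachyury, read 768, 880.1 and 654 in 2i/LIF and 698, 597 and 212 in Serum/LIF, with Serum/LIF replicate 1 inside the range of 2i/LIF.

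Beta-catenin reaches DNA through TCF and LEF factors, which bind the letters CTTTGAT. RefSeq promoter windows (GRCm38.p6, 250 bases before to 50 after the start site) were at hand for 7 of the 12 Wnt targets that rose, and the letters CTTTGAT, on either strand, were in that of 1 of them, Sp5. They were in 3.73% of all 32851 windows taken singly, but a gene may have several windows, so the shares are not on the same basis. The Sp5 window is shown because it is that match, at chr2:70474673-70474972 on the + strand, with the match in capitals, its first base 104 before the start site.
Sp5: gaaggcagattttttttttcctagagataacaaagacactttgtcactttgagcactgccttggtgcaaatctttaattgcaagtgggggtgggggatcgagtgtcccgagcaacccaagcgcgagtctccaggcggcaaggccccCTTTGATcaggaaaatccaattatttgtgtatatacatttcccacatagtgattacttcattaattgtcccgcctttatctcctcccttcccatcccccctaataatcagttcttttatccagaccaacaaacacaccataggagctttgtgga
A match of letters is a description of the window and says nothing of binding in these cells.

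**Figure D2:**
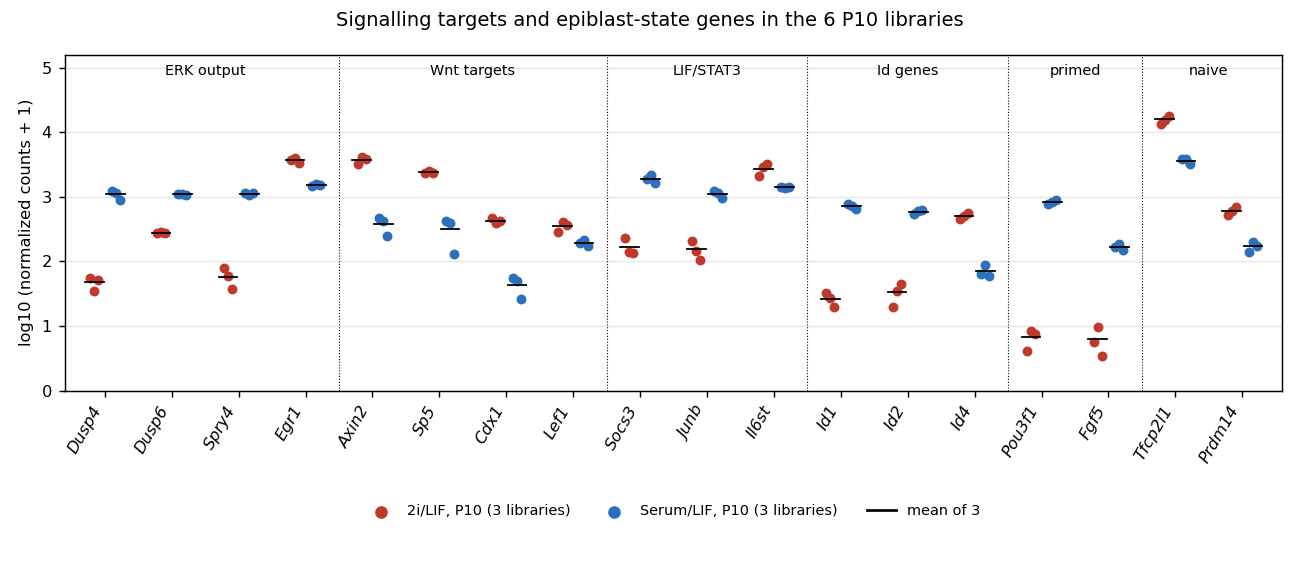
Normalized counts of 18 genes in the 6 P10 libraries on a log10 scale (log10 of counts plus 1), with 2i/LIF in red, Serum/LIF in blue and a black bar at the mean of 3 libraries. The ERK phosphatases, the Id genes Id1 and Id2, Socs3 and the primed genes are lower in every 2i/LIF library, while Egr1, the Wnt targets, Id4 and the naive genes are higher.

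LIF signals through the receptor pair Lifr and Il6st to STAT3, whose targets include its own brakes. Of 12 genes of this pathway, all tested, 2 rose and 6 fell, with a median of -0.89. Il6st, the shared receptor chain, read 2111, 2905 and 3178 in 2i/LIF and 1394, 1360.2 and 1425 in Serum/LIF (log2 fold change 0.97 ± 0.13, adjusted p = 3.60e-06, edgeR), and Lifr rose by 0.40. Stat3 itself did not pass (0.11). Socs3, the feedback inhibitor of the receptor, read 226, 138 and 134 against 1896, 2151 and 1640.4. Its Serum/LIF libraries were 7 or more times the highest 2i/LIF library, and the log2 fold change was -3.54 ± 0.16 (adjusted p = 2.16e-12, edgeR). Cish, another SOCS family gene, fell (-3.25), as did Junb (-2.91), Pim3 (-1.67), Bcl3 (-1.04) and Pim1 (-0.75). At P20 the log2 fold change of Socs3 was -0.25, and that of Junb -0.65. The differences between passages gave adjusted p = 8.52e-09 and 1.16e-05 (edgeR). The receptor gene Osmr and the inhibitor Socs1 did not pass.

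Id genes, the classical targets of BMP, were split. Of 14 genes of BMP, Nodal and Id signalling, 13 were tested (all but Grem1), 3 rose and 5 fell, with a median of -0.23. Id1, an inhibitor of neural bHLH factors, read 31.4, 26.1 and 18.7 in 2i/LIF and 784, 713 and 636 in Serum/LIF, and Id2 read 18.8, 33.4 and 44.0 against 535, 605 and 620.1. No library of one medium came within 10 times of the other medium for either gene, and the log2 fold changes were -4.87 ± 0.22 and -4.10 ± 0.24 (adjusted p = 2.65e-12 and 7.88e-11, edgeR). Id3 fell by 0.57. Id4 went the other way, with 457, 501 and 557 in 2i/LIF and 62.7, 87.3 and 57.8 in Serum/LIF (log2 fold change 2.86 ± 0.17, adjusted p = 1.07e-10, edgeR). Skil, a repressor of SMAD signalling, fell by 1.88, and Smad7, an inhibitor of the receptors, rose by 0.53. Lefty1, Lefty2, Bmp4, Bambi and Smad6 did not pass.

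Genes of the actin and serum-response programme were lower in 2i/LIF. Of 22 genes, 21 were tested (all but Actg2), and 19 fell, 1 (Vim) rose and 1 (Ccn2, -0.37) did not pass. The median log2 fold change was -4.31, or -3.33 with genes that lack counts in a medium set to the bound given below. Tagln, an actin-binding protein of smooth muscle, read 3.14, 8.71 and 3.26 in 2i/LIF and 2462, 2201 and 2446 in Serum/LIF (log2 fold change -8.93 ± 0.35, adjusted p = 4.25e-13, edgeR). Thbs1, a matrix glycoprotein, read 6.28, 11.6 and 5.70 against 1639, 1486 and 1851. Neither gene was above 11.6 in any 2i/LIF library. The keratin Krt18 read 51.8, 50.8 and 35.0 against 3200.0, 2788 and 3285, and Krt8, its partner in simple epithelia, read 749, 514 and 453 against 6091, 5134 and 4942. The log2 fold changes were -6.12 and -3.25 (adjusted p = 3.67e-13 and 4.34e-11, edgeR). Cnn1, Myl9, Ankrd1, Cav1 and Cav2 were at the floor in 2i/LIF, meaning at most 3 counts in every library. Against a floor of 3 counts per library their Serum/LIF means were at least 47.3, 53.3, 10.0, 20.2 and 8.55 times higher. Tpm1, a tropomyosin with wide expression, fell (-3.13), as did Ccn1 (-2.72), the factor Srf (-1.25) and vinculin (Vcl) (-1.05). Vim, an intermediate filament of mesenchymal cells, read 7672, 7471 and 5588 in 2i/LIF and 3718, 3118 and 2441 in Serum/LIF, a log2 fold change of 1.16 (adjusted p = 5.01e-06, edgeR).

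Serum response factor binds the CArG box. Of the 19 genes that fell, 17 had a RefSeq promoter window, and 4 of these held a CArG box in a window. Among the 7 Wnt targets that rose and had a window, 2 (Lef1 and Tcf7) held one too. Of all windows taken singly 1.63% held one, but a gene may have several windows, so the shares are not on the same basis. The window of Myl9, a myosin light chain, is shown with its CArG box in capitals, starting 161 bases before the start site, at chr2:156775214-156775513 on the + strand.
Myl9: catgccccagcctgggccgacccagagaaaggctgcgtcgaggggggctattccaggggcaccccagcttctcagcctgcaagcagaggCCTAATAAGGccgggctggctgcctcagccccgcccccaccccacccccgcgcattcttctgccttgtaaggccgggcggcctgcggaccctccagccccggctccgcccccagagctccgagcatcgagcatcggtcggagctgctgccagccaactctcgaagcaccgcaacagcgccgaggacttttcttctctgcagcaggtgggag

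Markers of fibroblasts moved with this programme. Of 10 fibroblast markers, 7 were tested and 6 fell, while Dcn, Lum and Prrx1, which define fibroblasts, had too few counts to be tested. The 10 genes summed to 95.9 to 137 normalized counts in 2i/LIF and 2439.8 to 2879 in Serum/LIF. To this sum Col1a1, the main chain of type I collagen, gave 6.28, 8.71 and 4.07 in 2i/LIF and 2103, 2016 and 1565 in Serum/LIF. In these bulk libraries fewer cells of a type and less RNA per cell cannot be told apart, here and for the lineage genes below. The part of other cells in the fall of the actin genes was not tested.

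The core pluripotency factors differed little. Pou5f1 read 19044, 16296 and 15068 in 2i/LIF and 19093, 17332 and 17371 in Serum/LIF (log2 fold change -0.09), and Sox2 read 5379, 5609 and 5505 against 4972, 4798 and 4814 (0.18), and neither passed. Nanog read 6490.4, 7588 and 8518 against 5062, 4659 and 4133, a log2 fold change of 0.71 ± 0.11 (adjusted p = 1.89e-05, edgeR). Of the 9 general factors 2 rose (Nanog and Sall1) and 5 fell. Sall1 lost its call without replicate 2 or 3 of 2i/LIF or replicate 2 of Serum/LIF, which leaves Nanog alone. The falls were those of Tdgf1, the Nodal co-receptor also called Cripto, with 1667, 1489 and 1425 in 2i/LIF and 8691, 9260.3 and 9963 in Serum/LIF, and of Utf1 (-2.50), the RNA-binding protein Lin28a (-2.29), Dppa4 (-1.25) and Sall4 (-0.45).

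Factors of the naive state rose as a group while primed genes fell. Of 15 naive factors, all tested, 10 rose, 1 fell and 4 did not pass, with a median of 0.71. Nanog, counted above among the general factors, is also 1 of these 10, and its value is the median. Tfcp2l1, a STAT3 target that sustains self-renewal, read 13547, 15680.4 and 17948 in 2i/LIF and 3840.4, 3834 and 3207 in Serum/LIF (log2 fold change 2.12 ± 0.10, adjusted p = 6.14e-12, edgeR). Prdm14, a repressor of FGF signalling and of DNA methylation, read 518, 594 and 681 against 141, 197 and 171 (1.82 ± 0.13, adjusted p = 1.26e-09, edgeR). For both genes every 2i/LIF library was over 2 times the highest Serum/LIF library. Tbx3, Nr5a2 and Tcl1 rose by 1.37, 1.31 and 1.26, Klf4 by 0.84, Gbx2 by 0.87 and Esrrb by 0.62. Klf2, Klf5, Dppa3 and Nr0b1 did not pass, with log2 fold changes between 0.08 and 0.30. The fall was that of Zfp42, also called Rex1, at 7473, 6118 and 6377 against 9444, 8278 and 8381 (-0.39). It lost its call without 2i/LIF replicate 2 or Serum/LIF replicate 1 (adjusted p up to 0.0125, edgeR), which leaves 0 naive factors lower.

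Of 16 formative and primed genes, all tested, 15 fell and 1 rose, with a median of -2.40, and the 3 and 3 libraries did not overlap for 16 of the 16. Pou3f1, a POU factor also called Oct6 that marks the exit from naive pluripotency, read 3.14, 7.26 and 6.52 in 2i/LIF and 781, 830.4 and 905 in Serum/LIF (log2 fold change -7.13 ± 0.18, adjusted p = 4.61e-15, edgeR). Fgf5, the ligand of the early post-implantation epiblast, read 4.71, 8.71 and 2.44 against 167, 188 and 147 (-5.09 ± 0.39, adjusted p = 1.00e-08, edgeR). The 2i/LIF libraries were thus near the limit of detection for both. Tcf15, a bHLH factor of the transition, fell (-3.67), as did Foxp1 (-3.62), Grhl2 (-3.38), Lin28b (-3.10) and Otx2 (-2.38). Zic2 was the member that rose, with 631, 841 and 665 against 376, 373 and 472 (0.81 ± 0.19, adjusted p = 0.00121, edgeR).

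**Figure D3:**
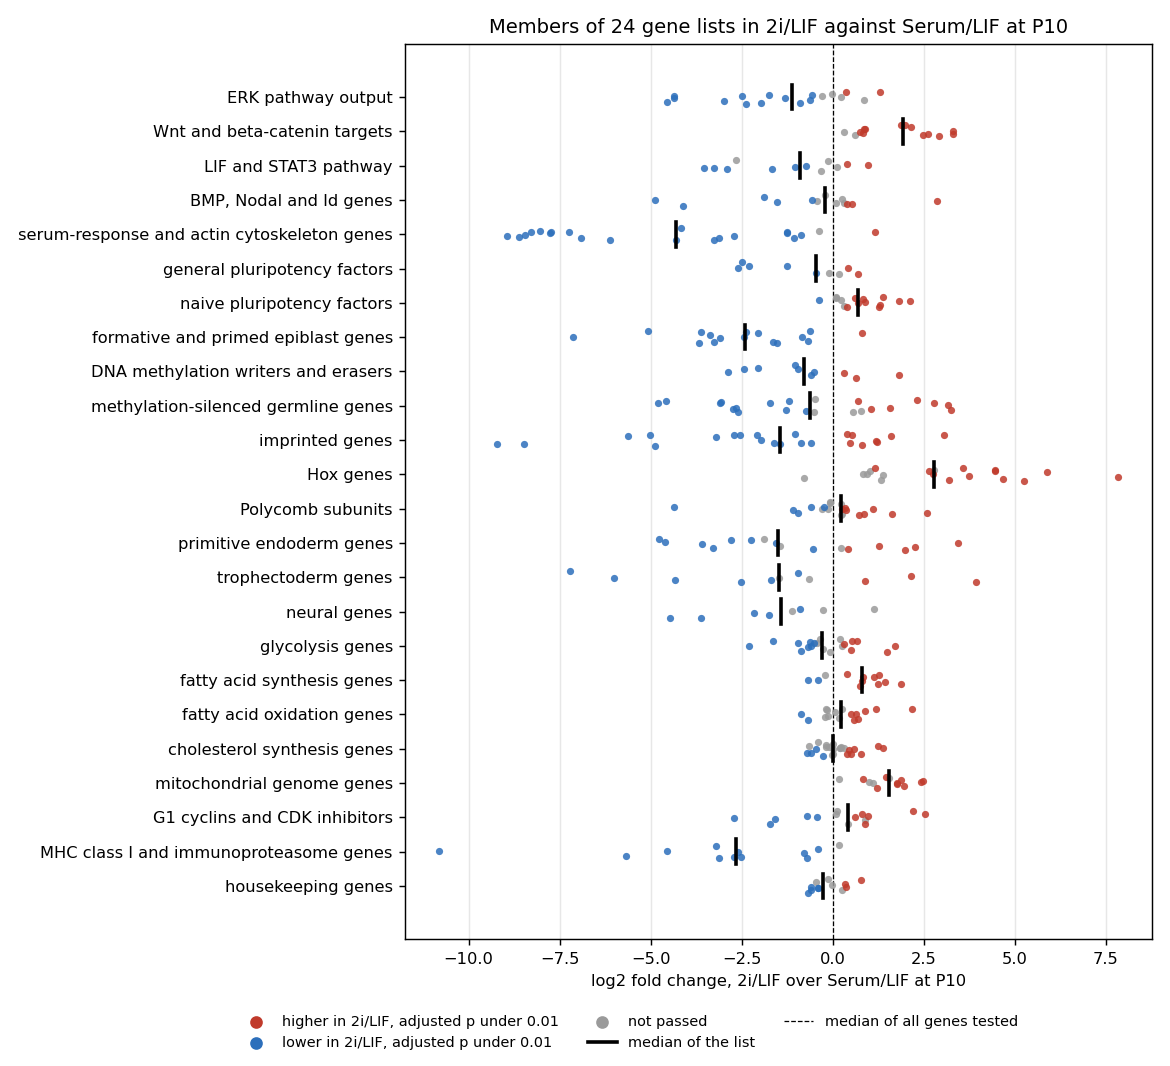
Log2 fold change of every tested member of 24 gene lists, 2i/LIF over Serum/LIF at P10. Red points were higher and blue points lower at an adjusted p under 0.01, grey points did not pass, and black bars are list medians, which run from -4.31 for the serum-response genes to 2.77 for the Hox genes around a median of 0.02 over all genes (dashed line).

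The writers and erasers of DNA methylation moved in both directions. All 10 genes passed, 3 higher and 7 lower. The de novo methyltransferase Dnmt3b read 1818, 2158 and 1522 in 2i/LIF and 9838, 9010.3 and 10620.0 in Serum/LIF (log2 fold change -2.43 ± 0.13, adjusted p = 2.98e-11, edgeR), and Dnmt3a read 827, 771 and 495 against 2615, 2717 and 3291 (-2.06 ± 0.15). Dnmt3l, their cofactor without catalytic activity, read 1455, 713 and 402 against 6901, 6275 and 5474 (-2.88 ± 0.29, adjusted p = 9.96e-08, edgeR). Within 2i/LIF its replicate 1 was more than 3 times replicate 3, yet below every Serum/LIF library, and without replicate 1 the log2 fold change was -3.50. The genes that rose were Prdm14, described above, and the maintenance genes Uhrf1, by 0.64, and Dnmt1, by 0.32, though Dnmt1 did not pass without the filter on low counts or with only the compared groups in the fit. The demethylating enzymes Tet1, Tet2, Tet3 and Tdg fell (log2 fold changes -0.61, -0.97, -1.03 and -0.53). Tet1 lost its call without replicate 1 or 2 of 2i/LIF or replicate 3 of Serum/LIF (adjusted p up to 0.0412, edgeR).

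Germline genes that methylation is known to silence did not move as 1 group. All 22 were tested, 7 rose, 11 fell and 4 did not pass, with a median of -0.62. In the fits that left out 1 library 7 to 9 fell and 6 to 8 rose. Taf7l, which fell, passed in 0 of these 6 fits, Brdt and Tex101 in 2 and Syce1 in 3, while Asz1, which rose, passed in 1. Dazl, an RNA-binding protein of germ cells, read 472, 697 and 1125 in 2i/LIF and 96.4, 79.4 and 81.0 in Serum/LIF, every 2i/LIF library above every Serum/LIF library (log2 fold change 3.17 ± 0.30, adjusted p = 5.33e-08, edgeR). Fkbp6, which acts in piRNA synthesis, read 256, 234 and 169 against 32.8, 37.7 and 23.1 (2.79 ± 0.27, adjusted p = 6.09e-08, edgeR). Rpl10l and Tuba3a, a testis ribosomal protein and a testis tubulin, rose by 1.57 and 1.06. Ddx4, the germ cell helicase also called Vasa, went the other way, with 64.4, 47.9 and 49.7 against 309, 352 and 324 (-2.62 ± 0.16, adjusted p = 1.83e-10, edgeR). The meiotic gene Sycp3 read 72.2, 58.1 and 75.7 against 486, 679.6 and 582 (-3.07), and the piRNA pathway genes Mael, Tdrkh and Mov10l1 fell (log2 fold changes -4.57, -4.81 and -3.09).

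The promoter windows of Dazl and Ddx4 are shown because both are rich in CpG, the dinucleotide that is methylated, while the genes moved in opposite directions. CpG is in capitals, with 28 in the Dazl window (chr17:50293571-50293870, - strand) and 38 in the Ddx4 window (chr13:112652261-112652560, - strand).
Dazl: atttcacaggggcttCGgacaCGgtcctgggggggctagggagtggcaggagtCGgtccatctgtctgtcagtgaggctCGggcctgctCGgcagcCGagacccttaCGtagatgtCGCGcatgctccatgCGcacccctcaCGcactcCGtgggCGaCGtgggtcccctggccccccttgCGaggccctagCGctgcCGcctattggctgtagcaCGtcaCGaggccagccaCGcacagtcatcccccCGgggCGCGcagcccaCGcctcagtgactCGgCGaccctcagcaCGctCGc
Ddx4: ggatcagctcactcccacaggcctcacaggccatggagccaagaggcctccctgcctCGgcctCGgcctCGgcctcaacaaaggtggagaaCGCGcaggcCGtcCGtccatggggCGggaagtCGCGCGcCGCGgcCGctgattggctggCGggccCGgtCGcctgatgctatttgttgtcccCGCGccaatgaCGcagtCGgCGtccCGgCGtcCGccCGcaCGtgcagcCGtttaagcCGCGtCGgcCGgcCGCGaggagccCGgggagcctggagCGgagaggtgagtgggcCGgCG
Of all windows taken singly the median held 7 CpG. For a germline gene with several windows the highest count was used, so the medians are not on the same basis. Among germline genes with a window the median was 16 for the 7 that rose and 20.5 for 10 of the 11 that fell, by the calls with all libraries.

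Imprinted genes moved in both directions. Of 24 listed 23 were tested (all but Airn), 8 rose and 15 fell, with a median of -1.44. Without any 1 of the libraries 6 to 8 rose and 14 or 15 fell, and among those that rose Impact and Usp29 passed in only 2 of these 6 fits each (adjusted p up to 0.0161 and 0.121, edgeR). H19, a maternally expressed RNA, and Igf2, the paternally expressed growth factor beside it on chromosome 7, are controlled by the same imprinting region. H19 read 1.57, 2.90 and 3.26 in 2i/LIF and 932, 958 and 1208 in Serum/LIF, and Igf2 read 3.14, 7.26 and 0 against 1849.8, 1485 and 1837. Both were thus near the limit of detection in every 2i/LIF library, with a log2 fold change of -9.22 ± 0.56 for Igf2 (adjusted p = 1.21e-10, edgeR). It ran from -10.49 without 2i/LIF replicate 2 to -8.32 without 2i/LIF replicate 3. For H19 the log2 fold change was -8.49 ± 0.42 (adjusted p = 7.67e-12, edgeR). Dlk1 read 4.71, 0 and 1.63 against 101, 110.1 and 99.5, at least 27.0 times higher in Serum/LIF, and Magel2 read 3.14, 0 and 2.44 against 55.9, 64.5 and 79.8, at least 17.4 times higher. Peg10, derived from a retrotransposon, read 1421, 1335 and 2587 against 16988, 17042 and 16061 (-3.22 ± 0.25, adjusted p = 3.61e-09, edgeR), and Cdkn1c, Grb10 and Snrpn fell (log2 fold changes -2.71, -2.54 and -1.97). Plagl1, also called Zac1, went up, with 1221, 1368 and 1846 against 193, 190.5 and 150.4 (3.05 ± 0.15, adjusted p = 6.29e-12, edgeR). Kcnq1ot1 rose by 1.59, and the maternal RNAs of the Dlk1 region, Meg3, Mirg and Rian, rose by 1.19, 0.80 and 0.52 while Dlk1, beside them, fell.

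Hox genes, which set position along the body axis and are held off by Polycomb in ESCs, were higher in 2i/LIF, least clearly in the D cluster. Of 39 genes 19 were tested, and 12 rose, none fell and 7 did not pass, with a median of 2.77 over those tested (2.50 with genes at the floor set to their bound). The other 20 had too few counts to be tested, and a gene that was tested only for its 2i/LIF level had to differ, so the count describes the tested genes and not the family. Hoxc11 lost its call in some fits that left out 1 library, and 10 to 12 genes rose in the fits without 1 library. The 9 genes of the C cluster, on chromosome 15, summed to 495 to 513 normalized counts in 2i/LIF and 35.9 to 60.8 in Serum/LIF, and the B cluster to 254 to 399 and 32.7 to 49.2. Hoxb9 gave most of the B cluster's sum in 2i/LIF. Hoxb4 and Hoxb7 passed in 0 of the 6 fits without 1 library. The 9 genes of the D cluster overlapped between the media, with sums of 29.0 to 80.1 in 2i/LIF and 24.8 to 36.6 in Serum/LIF, and of its 4 tested genes Hoxd4, at the floor in Serum/LIF, was at least 3.91 times higher in 2i/LIF (adjusted p = 0.000138, edgeR) while Hoxd8, Hoxd9 and Hoxd13 did not pass. Hoxc4 read 141, 145 and 156 in 2i/LIF and 3.86, 1.98 and 1.16 in Serum/LIF, and Hoxc13, at the other end of the cluster, read 199, 239.6 and 231 against 46.3, 25.8 and 26.6. Hoxb9 read 188, 305 and 316 against 24.1, 15.9 and 20.8. In all 3 genes every 2i/LIF library was above every Serum/LIF library, with log2 fold changes of 5.87 ± 0.36, 2.75 ± 0.22 and 3.73 ± 0.27 (adjusted p = 1.25e-10, 5.09e-09 and 1.47e-09, edgeR). Hoxc12 was at the floor in Serum/LIF, and its 2i/LIF mean of 28.9 was at least 9.27 times higher.

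**Figure D4:**
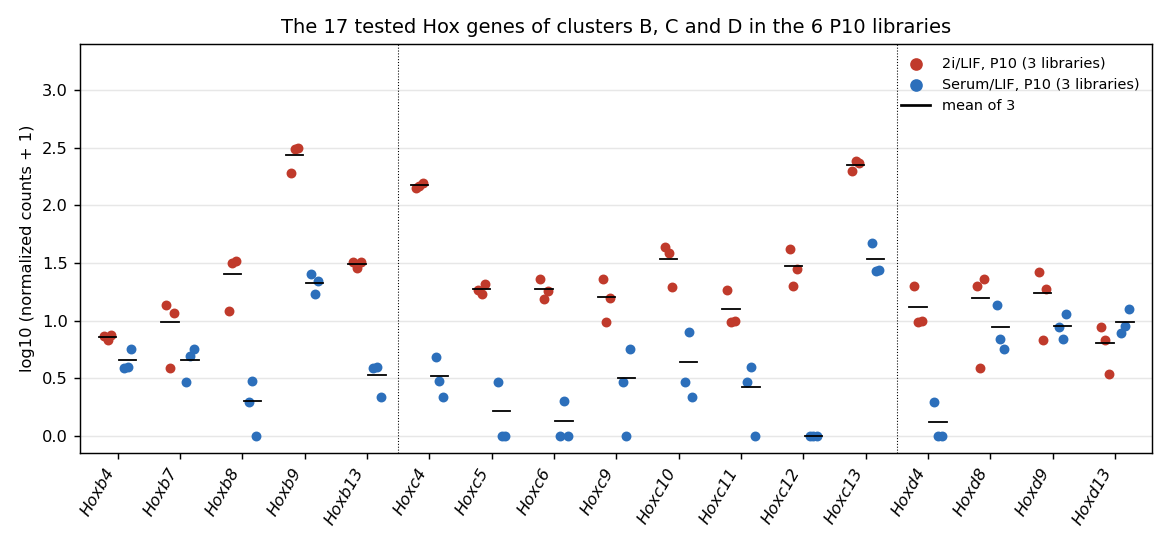
Normalized counts (log10 of counts plus 1) of the 17 tested Hox genes of clusters B, C and D in the 3 2i/LIF (red) and 3 Serum/LIF (blue) libraries at P10, in cluster order, with a bar at the mean. Hoxb9 and Hoxc4 to Hoxc13 have no 2i/LIF library below a Serum/LIF library, and of these 17 genes Hoxd13 alone has a lower mean in 2i/LIF.

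Polycomb subunits themselves moved both ways. Of 20 genes, all tested, 8 rose and 5 fell, where 26.4% of all genes rose and 25.6% fell by the same rule. The counts were 5 higher without 2i/LIF replicate 2 and 3 lower without Serum/LIF replicate 1. Bmi1, a subunit of PRC1, read 532, 502 and 636 in 2i/LIF and 95.5, 84.3 and 97.2 in Serum/LIF (log2 fold change 2.60 ± 0.13, adjusted p = 1.11e-11, edgeR), and Pcgf1, its counterpart in variant PRC1, rose by 1.62. Phf19, which brings PRC2 to chromatin, read 18.8, 5.81 and 8.96 against 227, 213 and 229 (-4.37 ± 0.30, adjusted p = 7.05e-10, edgeR). Jarid2, another PRC2 cofactor, fell by 1.09 and the methyltransferase Ezh2 (-0.60), while Ezh1 and Suz12 rose by 1.10 and 0.72.

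Early lineage genes moved in both directions, with more falls than rises in each of 4 lists. Of 18 primitive endoderm genes 16 were tested, 5 rose and 8 fell, with 3 higher without 2i/LIF replicate 3. The basement membrane collagens Col4a1 and Col4a2 fell (log2 fold changes -4.78 and -4.60), and the endocytic receptor Lrp2 (-3.60). Gata4, a defining factor, was low in both media, at 22.0, 14.5 and 12.2 against 42.4, 60.5 and 35.9 (-1.55). Hnf4a, a factor of visceral endoderm, rose instead, with means of 233 in 2i/LIF and 21.1 in Serum/LIF (3.44 ± 0.31, adjusted p = 2.12e-08, edgeR), as did Lama1 (1.99) and Sox17, which read 23.5, 20.3 and 13.0 against 4.82, 3.97 and 2.31. The 6 marker genes of this cell type summed to 91.5 to 103 in 2i/LIF and 172 to 226 in Serum/LIF. Of 12 trophectoderm genes 11 were tested, 3 rose and 6 fell. Krt19 read 22.0, 33.4 and 38.3 against 2311, 2500.1 and 1443 (-6.00), and Krt7 fell by 4.33. The trophectoderm factor Cdx2, given above among the Wnt targets, rose by 2.14, and Tead4, which acts upstream of it, by 0.89. Tfap2a also rose, with 239, 261 and 353 against 21.2, 20.8 and 12.7 (3.95 ± 0.21, adjusted p = 3.21e-11, edgeR), while Elf5, another defining factor, had too few counts to be tested. Of 12 neural genes 8 were tested, 5 fell and none rose (1 rose without Serum/LIF replicate 1), with Nes at 562, 394 and 292 against 1758, 2043 and 1735 and Neurod1 at 3.14, 4.36 and 5.70 against 96.4, 101 and 119. Of 12 mesoderm and endoderm genes 9 were tested, 1 (Gsc) rose and 5 fell. Gsc lost its call without 2i/LIF replicate 3 or Serum/LIF replicate 3, which leaves 0 higher. The ligand Fgf8 read 3.14, 1.45 and 0 against 105, 109 and 48.6, at least 22.8 times higher in Serum/LIF, and the ligand Wnt3 had means of 13.9 and 199 (-3.73, or -4.33 without 2i/LIF replicate 3).

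The marker sets of these lineages summed to 234 to 315 normalized counts in 2i/LIF and 306 to 321 in Serum/LIF for 4 trophectoderm genes, to 597 to 965 and 2788 to 3067 for 4 neural genes, and to 665 to 903 and 286 to 789 for 4 mesoderm genes. Most of the mesoderm sum in both media came from T, a Wnt target that did not pass. Mixl1 and Kdr of that set fell. Their log2 fold changes were -2.06 and -1.58 or lower without any 1 library, and Kdr passed in 4 of 6 such fits. The trophectoderm sum joined Cdx2, which rose, and Krt7, which fell. In each of the 4 sets, primitive endoderm included, 1 gene was at the floor in 2i/LIF and none in Serum/LIF.

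Genes of the early 2-cell stage mostly did not pass. Of 11 listed 9 were tested, 2 rose, 1 (Dppa2, -0.95) fell and 6 did not pass. Zscan4c read 61.2, 102 and 212 in 2i/LIF and 79.1, 86.3 and 146 in Serum/LIF. The rises were those of Usp17la, at 53.4, 49.4 and 141 against 3.86, 9.92 and 27.8, and Gm6763, at 0, 253 and 224 against 0, 0 and 0, where 2i/LIF replicate 1 held no counts. Usp17la lost its call without 2i/LIF replicate 3, Serum/LIF replicate 1 or Serum/LIF replicate 2 (adjusted p up to 0.0344, edgeR), which leaves 1 gene higher, and Gm6763 did not pass in DESeq2. Both belong to families of near-identical copies whose reads may be split between members.

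Glycolysis genes moved in both directions. Of 20 glycolysis genes, all tested, 6 rose and 8 fell, with a median of -0.31. These shares were not far above those of all genes. The glucose transporter Slc2a1 read 4718, 3937 and 4261 in 2i/LIF and 13097, 13916 and 13431 in Serum/LIF (log2 fold change -1.65 ± 0.13, adjusted p = 6.04e-09, edgeR), and the lactate exporter Slc16a3 read 775, 517 and 404 against 2721, 2939 and 2547 (-2.29 ± 0.28). The lactate dehydrogenases went apart. Ldha read 21898, 16168 and 12879.9 against 32746, 31274 and 29286 (-0.87, adjusted p = 5.27e-05, edgeR), and Ldhb read 12486, 11761 and 12929 against 4423, 4663 and 4119.6 (1.49, adjusted p = 5.82e-09, edgeR). Of the hexokinases Hk1 rose by 1.72 and Hk2 did not pass (-0.07). Pkm, Eno1, Pgk1 and Pfkl fell (log2 fold changes -0.63, -0.59, -0.67 and -0.96).

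Most genes of fatty acid synthesis were higher. Of 12 genes of fatty acid synthesis, all tested, 9 rose and 2 fell, with a median of 0.82. Scd1, a desaturase that makes monounsaturated fatty acids, read 4814, 5026 and 5364 in 2i/LIF and 1331, 1441 and 1415 in Serum/LIF (1.86 ± 0.11, adjusted p = 5.24e-11, edgeR). Fads1, Elovl6, Scd2 and the factor Srebf1 rose by 1.44, 1.27, 1.24 and 1.12, while Acaca and Elovl5 fell (log2 fold changes -0.69 and -0.40) and Fasn did not pass (-0.22). Of 16 genes of fatty acid oxidation 7 rose and 2 fell, with 1 lower without 2i/LIF replicate 3 or Serum/LIF replicate 2. Cpt1a, the enzyme that admits fatty acids to mitochondria, read 2463, 2925 and 2979 against 611, 672 and 581 (2.17 ± 0.13, adjusted p = 8.36e-11, edgeR), and the carnitine carrier Slc25a20 rose by 1.20. The 24 cholesterol synthesis genes did not share a direction, with 7 higher, 4 lower and a median of 0.01. Without 2i/LIF replicate 1, 7 were lower.

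Transcripts of the mitochondrial genome were higher, unevenly between libraries. All 13 genes were tested and 9 rose, with a median of 1.53. In the fits without 1 library 7 to 12 rose, with 12 without 2i/LIF replicate 1. The 13 summed to 213226, 508340 and 521691 normalized counts in 2i/LIF replicates 1, 2 and 3 and to 141263, 141827 and 177421 in Serum/LIF. mt-Nd4, a subunit of complex I, read 7387, 33246 and 33349 against 4158, 4394 and 5319 (2.42 ± 0.55, adjusted p = 0.000891, edgeR). 2i/LIF replicate 1 was above all Serum/LIF libraries in the sum but lay closer to them than to its own group. At P20 none of the 13 passed in either direction, and the median was 0.03. There 2i/LIF replicate 1 was again the lowest of its group, with 1.04% of counts from the mitochondrial genome against 2.28% and 2.75%. Without it none of the 13 passed at P20 and the median was 0.37. The difference between passages had an adjusted p under 0.01 for 2 of the 13 genes, and for 1 without that library.

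Among the sirtuins, the NAD-dependent deacylases, and the enzymes of NAD synthesis, 5 of 13 rose and 3 fell. Of all genes 26.4% rose and 25.6% fell by the same rule. In the fits without 1 library 4 to 5 of the 13 rose and 3 to 4 fell. Sirt1 read 1833, 1634 and 1696 in 2i/LIF and 1540.2, 1397 and 1581 in Serum/LIF and did not pass (0.19), against a mean of 5791 in EMM. Sirt7, Sirt6 and Sirt2 rose by 1.21, 0.79 and 0.76, and the mitochondrial Sirt5 fell by 1.43. Naprt, which makes NAD from nicotinic acid, read 67.5, 58.1 and 60.3 against 368, 374 and 307 (-2.50 ± 0.16, adjusted p = 3.65e-10, edgeR).

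Among genes of the cell cycle, Cdkn1a, Cdkn2a and Cdkn1b were higher. Of 15 G1 genes 6 rose and 5 fell, where 26.4% of all genes rose and 25.6% fell by the same rule. Cdkn1a, which encodes the CDK inhibitor p21, read 4829.7, 5403 and 4988 in 2i/LIF and 867, 939 and 804 in Serum/LIF (2.54 ± 0.08, adjusted p = 8.37e-14, edgeR), and Cdkn2a, which encodes p16 and p19ARF, read 857, 523 and 716 against 161, 123 and 171 (2.20 ± 0.26, adjusted p = 7.81e-07, edgeR). Cdkn1b rose by 0.61, whereas the imprinted inhibitor Cdkn1c fell. Among cyclins Ccne1 read 1237, 1098 and 1019 against 4098, 3394 and 3533 (-1.72 ± 0.09, adjusted p = 1.95e-11, edgeR), Ccnd2 and Ccnd3 fell (log2 fold changes -1.57 and -0.69), and Ccnd1 rose. Of 12 genes of p53 and its targets 7 rose and 1 fell, with 6 to 9 higher in the fits without 1 library. The list holds Trp53 itself and not Pmaip1 or Bbc3, which fell and are given below. Trp53inp1 rose by 1.34 and Ccng1 by 0.70, Trp53 and Mdm2 did not pass, and Perp, a desmosome protein, read 89.5, 61.0 and 44.0 against 1116, 1034 and 953 (-4.06). In the Myc network Myc read 162, 100.2 and 116 in 2i/LIF and 689, 522 and 617 in Serum/LIF (-2.29 ± 0.14, adjusted p = 1.97e-10, edgeR) and Mycn fell by 1.51, while the antagonists Mga and Mxd1 rose by 0.90 and 0.93. Of 15 genes of ribosome biogenesis 6 fell, 1 rose and 8 did not pass, with log2 fold changes from -0.77 to 0.32. The gene that rose, Nop2, a methyltransferase of the nucleolus, lost its call in most fits that left out 1 library. Of 18 apoptosis genes 4 rose and 7 fell, to be read beside the same shares of all genes. Those that rose were Tnfrsf1a (1.42), Casp9 (1.17), Bid (0.89) and Apaf1 (0.69), and those that fell were the BH3-only genes Pmaip1 (-2.88), Bcl2l11 (-2.41), Bbc3 (-1.08) and Bmf (-1.03), and the survival genes Bcl2 (-2.60), Mcl1 (-0.67) and Bcl2l1 (-0.68).

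Genes of antigen presentation were lower. Of 12 genes of MHC class I and the immunoproteasome, all tested, 11 fell and 1 did not pass, with a median of -2.66 (-2.56 with genes at the floor set to their bound). H2-K1, a class I heavy chain, read 154, 109 and 70.0 in 2i/LIF and 943, 1080.4 and 936 in Serum/LIF (-3.21 ± 0.18, adjusted p = 4.87e-11, edgeR), and the peptide transporter Tap1 read 26.7, 39.2 and 35.0 against 181, 227 and 177 (-2.52). Psmb8, a catalytic subunit of the immunoproteasome, held no counts in 2i/LIF and 269, 234 and 167 in Serum/LIF, at least 58.2 times higher in Serum/LIF. H2-K1 and H2-D1 share stretches of sequence, so their split of reads is uncertain. Of 16 adhesion genes 4 rose and 9 fell. Cdh1, E-cadherin, rose by 0.48, and Cdh2, N-cadherin, fell by 1.65. The tight junction gene Cldn7 read 36.1, 27.6 and 35.0 against 700.2, 720.3 and 727 (-4.43 ± 0.16, adjusted p = 1.78e-13, edgeR), and Itga5, the fibronectin receptor chain, fell by 2.66 while fibronectin itself (Fn1) rose by 1.27. Of 12 retinoid genes 9 were tested, of which 4 fell and 1 rose, and the count that rose was 0 or 1 in the fits that left out 1 library. Cyp26a1, which breaks down retinoic acid, held no counts in 2i/LIF and 125, 73.4 and 41.6 in Serum/LIF, at least 20.9 times higher in Serum/LIF. Of 12 housekeeping genes 3 rose and 5 fell, with a log2 fold change of -0.67 for Pgk1 and 0.24 for Gapdh.

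The largest changes over all genes were taken from those called with no overlap between libraries and a mean of at least 50 normalized counts in a group. Among the 15 largest rises, Htr5a, a serotonin receptor, read 689, 1140.0 and 1074 in 2i/LIF and 0.964, 4.96 and 1.16 in Serum/LIF, and Pdzrn4 read 816, 1288 and 1457 against 8.68, 6.94 and 3.47. The channel gene Pkd2l1 read 661, 502 and 849.5 against 3.86, 7.94 and 1.16, and Bhmt, an enzyme of methionine synthesis from betaine, read 341, 312 and 853 against 8.68, 0 and 9.25. Their log2 fold changes were 8.58, 7.49, 7.20 and 6.41 (adjusted p = 6.68e-13, 1.68e-12, 2.53e-11 and 4.99e-08, edgeR). Leaving out 1 library moved them to 9.68 (Htr5a) and 7.94 (Pkd2l1) without Serum/LIF replicate 2, and to 5.77 (Bhmt) without 2i/LIF replicate 3 or 5.81 without Serum/LIF replicate 2. The other 11, Sash3, Sptlc3, Khdc1a, Asb9, Gm2260, Khdc1c, Hsd17b2, Cyp2c70, Rhox2a, Cnga4 and Jaml, were at the floor in Serum/LIF and at least 17.3 (Hsd17b2) to 55.4 (Sash3) times higher in 2i/LIF. Khdc1a, Khdc1c, Rhox2a and Gm2260 belong to clusters of near-identical copies, so their values are uncertain. Gm2260 lost its call without 2i/LIF replicate 3 or any 1 of the Serum/LIF libraries (adjusted p up to 0.0226, edgeR). Sptlc3, a subunit of the enzyme that starts sphingolipid synthesis, read 83.2, 155 and 136 in 2i/LIF and held no counts in Serum/LIF or in EMM at P10, and its 2i/LIF mean at P20 was 1.77.

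Among the 15 largest falls were Tagln, Igf2, Psmb8 and Cyp26a1, described above. Another 10 were all at the floor in 2i/LIF. Of these Gbp2b, an interferon-induced GTPase, read 0, 2.90 and 0.815 against 867, 954 and 691. Car4, a carbonic anhydrase, read 0, 0 and 0.815 against 294, 328 and 312, and Enpp2, the enzyme that makes lysophosphatidic acid, read 1.57, 0 and 0 against 246, 261 and 267. Wnt4, a Wnt ligand, held no counts in 2i/LIF and 180.3, 167 and 139 in Serum/LIF. The 10, which further included Fam131b, Loxl4, Jakmip2, Stmn4, Gdf1 and Gm8108, were at least 15.8 (Gm8108) to 218 (Gbp2b) times higher in Serum/LIF.

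The same media at 20 passages, in libraries shared with none of the above, were fitted in the same model. There 3576 genes (22.3% of those tested) were called, 1087 higher (6.77%) and 2489 lower (15.5%). Of the genes higher in 2i/LIF at P10, 741 were also called higher at P20, which is 39.7% of the P10 list and 68.2% of the P20 list, and 34 were called lower. Of the genes lower at P10, 1687 were called lower at P20, 71.2% and 67.8% of the lists, and 7 were called higher. The size of the 2i/LIF effect itself differed between the passages for 1496 genes (9.32%), by the same thresholds on the difference. Passage number and the set of libraries cannot be told apart in this comparison. 2i/LIF replicate 1 at P20 had the lowest total of the 18 libraries, and its 10 most abundant genes held 8.41% of counts, against 5.44% and 5.95% in the other libraries of its group. Without it 3550 genes were called at P20 and 1278 for the difference. The median log2 fold change at P20 was 0.330 over the genes of chromosome 6 and 0.469 over those of chromosome 8, against 0.0950 and 0.0047 at P10 and between -0.192 and 0.0703 on the other chromosomes at P20. The part of these shifts in differences of genes on the 2 chromosomes, such as Msmo1 and Col4a1 on chromosome 8, was not tested.

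For some of the genes above the difference between passages was not called. At P20 the log2 fold changes were -6.18 for Pou3f1, -8.73 for Igf2, -2.08 for Dnmt3b, 2.89 for Dazl, 3.13 for Plagl1, 5.83 for Hoxc4 and 1.60 for Tfcp2l1. Among the Wnt targets, Axin2 had means of 1462 in 2i/LIF and 450.2 in Serum/LIF at P20, a log2 fold change of 1.71 where that at P10 was 3.30 (adjusted p of the difference 0.000144, edgeR). Lef1 had means of 36.4 and 273 and Cdx2 of 12.8 and 37.9, so that both were higher in 2i/LIF at P10 and lower at P20 (log2 fold changes -2.86 and -1.45, adjusted p of the difference 8.52e-09 and 2.34e-06, edgeR). Of the 14 Wnt targets tested, 6 were higher and 3 lower at P20, where 21.0% and 23.2% of all genes were.

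Nr0b1, an orphan nuclear receptor of the naive network, did not pass at P10, with 1234, 1159 and 1159.9 against 1181, 1081 and 1101, and at P20 had means of 368 in 2i/LIF and 1519 in Serum/LIF (adjusted p of the difference 3.24e-08, edgeR). Gbx2 was higher in 2i/LIF at P10 and lower at P20 (-1.86, adjusted p of the difference 1.18e-07). Of the 24 cholesterol synthesis genes, 22 were higher and none lower in 2i/LIF at P20, with a median of 0.85, and 19 passed the test of the difference at an adjusted p under 0.01, where 20.0% of all genes did. Msmo1, a sterol methyl oxidase, read 1808, 1249 and 1181 in 2i/LIF and 1459, 1592 and 1485 in Serum/LIF at P10, a log2 fold change of -0.10 that did not pass, and had one of 1.53 at P20. Without 2i/LIF replicate 1 it passed at P10, with a log2 fold change of -0.32 (adjusted p = 0.00848, edgeR). Of the 9 tested 2-cell genes, 8 fell at P20 and 9 passed the test of the difference. Zscan4a had P20 means of 0.566 in 2i/LIF and 164 in Serum/LIF, against 39.2, 34.9 and 142 against 52.1, 42.7 and 93.7 in the single libraries at P10.

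**Figure D5:**
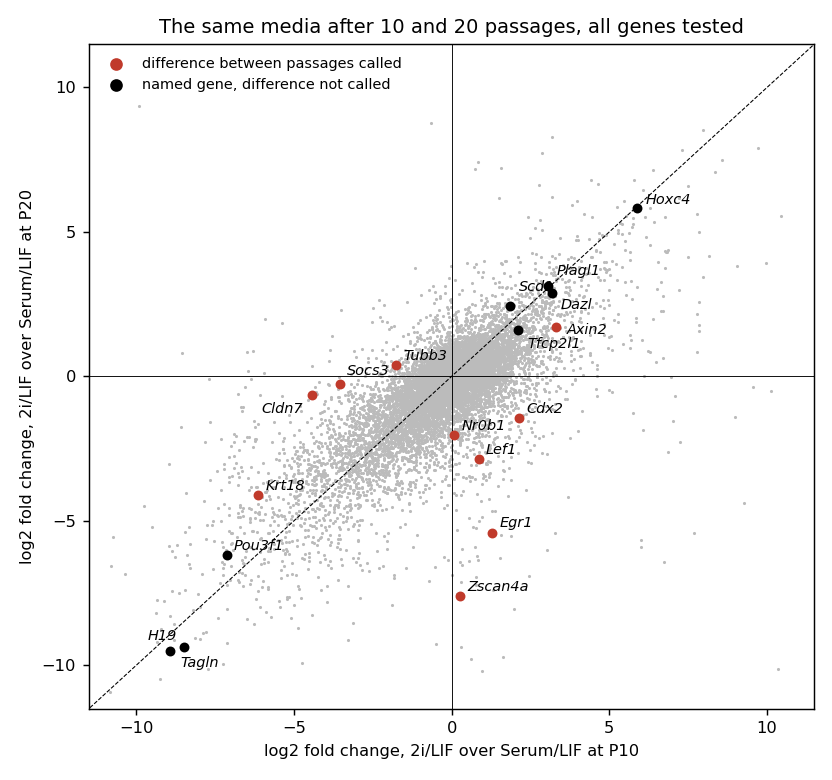
Log2 fold change of 2i/LIF over Serum/LIF at P20 against that at P10 for the 16054 genes tested (grey), with 18 list members named. Named genes in red had a called difference between passages (Axin2, Lef1, Cdx2, Egr1, Socs3, Cldn7, Tubb3, Krt18, Nr0b1 and Zscan4a) and those in black did not. The dashed line marks equal values.

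Among genes with a called difference between passages and a mean of at least 50 normalized counts in a group, overlapping libraries included, the 3 largest differences towards 2i/LIF at P20 were those of Gm10359, DXBay18 and Ahrr, and the 3 largest towards Serum/LIF were those of Gm6763, Gm2260 and Zscan4b. The others are multicopy or predicted genes whose values are uncertain, but Ahrr encodes the repressor of the aryl hydrocarbon receptor. Ahrr read 9.42, 7.26 and 8.96 in 2i/LIF and 11.6, 29.8 and 16.2 in Serum/LIF at P10 and had means of 89.1 and 6.82 at P20 (adjusted p of the difference 3.09e-05, edgeR).

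EMM libraries of the same passage give a further reference, set side by side because the comparison shares the 2i/LIF libraries. Between 2i/LIF and EMM at P10, 3544 genes (22.1%) were called. Dusp6 had a mean of 3059 in EMM, against 276 in 2i/LIF and 1088 in Serum/LIF, and Spry4 had 6098, against 57.2 and 1114. Axin2 and Sp5 had 194 and 1.84 in EMM. Tfcp2l1, at 8989, lay between 2i/LIF (15725) and Serum/LIF (3627), and Tbx3, at 4374, lay above both (2523 and 978). Pou3f1 (88.1), Igf2 (47.5), Tagln (66.3) and Krt18 (127) lay between the 2i/LIF and the Serum/LIF means. The EMM means of Plagl1 (154), Hoxc4 (2.87) and Cdkn1a (424) stood beside Serum/LIF means of 178, 2.33 and 869.9 and 2i/LIF means of 1479, 148 and 5073. EMM and Serum/LIF were not tested against each other here.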

How the data were processed

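RNA-seq libraries (NEBNext Ultra II Directional kit) were made by the authors from cells of each medium and passage. The authors deposited an estimated count per gene for the 18 libraries of the passage experiment, in which 9.98% of values were not whole. Their processing notes name STAR, Salmon, DESeq2 and mm10, while the annotation and the strand setting are not given in the sources used here. The counts were rounded, genes were matched to GENCODE M21, and 16054 of 55487 genes passed filterByExpr. All 18 libraries (6 groups of 3) were fitted in 1 edgeR 4.0.16 quasi-likelihood model in R 4.3.3 with TMM scaling, and p-values were adjusted by Benjamini-Hochberg over all tested genes. Antisense and overlapping genes cannot be told apart where strand was not used. For normalized counts each library was scaled, by its total and TMM factor, to the mean library size, so levels of different genes are not corrected for length.

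Genes at the floor had at most 3 counts in every library of a group, and their folds are bounds against 3 counts per library, for counting error only. Members of 34 lists (518 genes) were named by role and by their largest changes. The 15 largest rises and falls and the 3 largest differences between passages in each direction were named by rule, and passage and EMM values of other list members were chosen after their values were seen. Some genes are not reported here. The members and lists were chosen with earlier results of these data known. With 3 against 3 libraries an exact permutation test cannot go below p = 0.10, so none was used. Alternatives were other scalings (DESeq2 size factors, library totals), filters and thresholds, the Wald test of DESeq2 1.42.0, only the compared groups, a replicate block, and leaving out each library. The fits were tested on simulated data. RefSeq promoter windows (GRCm38.p6) were matched by symbol and searched on both strands for CTTTGAT, whose reverse is ATCAAAG, and for the CArG box.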

Additional observations from a re-analysis of the deposited data

Results flagged for a closer look

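The 2i/LIF effect differed between 10 and 20 passages, by the test of the difference itself (edgeR, adjusted p under 0.01 and a difference over 1 on the log2 scale), for 1496 genes. The values below are the log2 fold change of 2i/LIF over Serum/LIF at P20 minus that at P10, for genes whose P10 values the text gives. At P10 Egr1 was higher in 2i/LIF, and its difference was -6.69, while that of Fos was -1.52 and that of Dusp5 -1.21. Wnt targets with a smaller effect or the opposite effect at P20 were Lef1 (-3.72), Cdx2 (-3.59), Cdx1 (-2.35), Notum (-2.12), Axin2 (-1.59) and Apcdd1 (-1.15), and T, which did not pass at P10, had -1.89. Feedback genes of LIF signalling that fell at P10 had differences of 3.29 (Socs3), 2.26 (Junb), 1.91 (Cish) and 1.44 (Bcl3). Id1 had 2.10 and Id4 -1.38.

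Among pluripotency genes the differences were -2.73 for Gbx2, -2.11 for Nr0b1, 2.12 for Otx2, 1.79 for Tdgf1, -1.53 for Zic2, -1.30 for Foxp1, 1.15 for Utf1 and 1.13 for Lin28a. Keratins and other cytoskeletal genes had 2.41 (Krt8), 2.02 (Krt18), 1.84 (Krt19), 1.22 (Tpm1), -1.33 (Vim) and -1.08 (Ccn2). Adhesion and matrix genes had 3.78 (Cldn7), 2.02 (Col4a1), 1.18 (Itga5) and -1.54 (Cdh2). Lineage genes had 2.61 (Nes), 1.30 (Lrp2), -1.76 (Hnf4a), 1.07 (Tead4) and -2.17 (Hoxb9). For Sox17 one of the groups was at the floor, and the test of the difference gave adjusted p = 0.00244 (edgeR).

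Germline and imprinted genes had 2.53 (Tdrkh), 1.86 (Mov10l1), 1.10 (Sycp3), 1.07 (Tuba3a), -1.57 (Cdkn1c), -1.24 (Peg10), -1.21 (Grb10) and 1.20 (Snrpn). Chromatin genes had 2.08 (Phf19), 1.08 (Ezh2), -1.21 (Ezh1) and -1.08 (Dnmt3a). The 2-cell genes had -6.29 (Zscan4c), -4.99 (Usp17la) and -1.37 (Dppa2), and the adjusted p of the difference, with a group at the floor, was 2.94e-05 for Zscan4a and 0.00103 for Gm6763 (edgeR). Genes of the cell cycle and cell death had -2.10 (Ccnd2), -1.02 (Cdkn1a), -1.25 (Trp53inp1), -1.15 (Mxd1) and -1.14 (Bmf). Metabolic genes had 2.08 (Naprt), 1.63 (Msmo1) and -1.28 (Cpt1a). H2-K1 had 1.90, and among the largest changes Pdzrn4 had -3.35 and Ahrr 4.91. For Rhox2a, Gm2260, Gm10359, DXBay18 and Zscan4b, with a group at the floor, the adjusted p of the difference was 0.0028, 0.00838, 0.00747, 0.00696 and 0.00164 (edgeR).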

How the results depend on the processing

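No called gene among the 506 followed singly changed sign under any alternative, while values near 0 that did not pass, such as those of Etv5, Klf5, Dppa3, Zscan4a and Zscan4c, took both signs when 1 library was left out. Of 6393 values for single genes 6088 kept their side of the threshold, 222 lost a call and 83 gained one. Ccn2, Fasn and T, which did not pass, passed under some alternatives, with all of them among the fits without the filter on low counts. A minimum of 10 counts in each library of the table removed genes that are low in one group. It gave 1964 calls at P10 (975 higher and 989 lower), 1467 at P20 (569 higher and 898 lower) and 1733 against EMM. Without a fold threshold there were 8350 calls at P10 (4234 higher, 4116 lower), 7088 at P20 (3366 higher), 3216 for the difference between passages and 7237 against EMM. The scaling alternatives moved the median of all genes to between -0.03 and 0.02.

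Leaving out 1 library at a time gave 3771 to 4459 calls at P10 (1639 to 2045 higher, 2132 to 2414 lower), 3333 to 3550 at P20, 1119 to 1896 for the difference and 3085 to 3706 against EMM. An alternative chosen after seeing the data, without P20 2i/LIF replicate 1, gave 23 cholesterol synthesis genes higher at P20, 7 Wnt targets higher and 3 lower, and 8 genes of the 2-cell list lower. Between 317 and 346 list members passed, where 344 passed with all libraries. The deviations of the same-numbered libraries from their group means correlated at 0.320, 0.0637 and 0.337 for replicates 1, 2 and 3. Those of libraries with different numbers correlated at -0.344 to 0.134, the highest between 2i/LIF replicate 2 and Serum/LIF replicate 3. Whether the replicate numbers pair the libraries was not tested. The fit with a replicate block gave 4169 calls where the fit without it gave 4234. Depth limits the genes near the floor of 3 counts, for which folds are bounds.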
